A study of Saccharomyces cerevisiae with 24 samples.

Results

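The 10 genes described here encode actin, tubulin and proteins that bind, nucleate or fold them in Saccharomyces cerevisiae. They are ACT1, COF1, PFY1, SAC6, ARP2, ABP1, TUB1, TUB3, TUB2 and CIN2, of 5493 genes named on the arrays. They were chosen by name, with their differences between splicing mutants and SS330 and their changes from time 0 already known, so these values are a description and carry no test. The choice lists 8 of the 10 as carrying an intron, and ABP1 and TUB2 as lacking one. All 10 passed the filter on missing values, COF1 with a value on 23 arrays and each of the others on 24.

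The study followed cells of SS330 and of 3 strains mutant for pre-mRNA splicing factors, labelled prp17 null, prp17-1 and prp22-1, through a shift in temperature. Samples were taken before the shift, at 23C (0 min), and at 5, 15, 30, 60 and 120 min of growth at 37C. A two-colour array set the total RNA of each sample (Cy5) against yeast genomic DNA (Cy3), giving 24 arrays, 1 for each strain at each time. PRP17 now goes by the name CDC40 and encodes a protein needed for the second step of splicing, and PRP22 a helicase that frees the spliced mRNA from the spliceosome. The sources used here name no further genotype, clone or culture. With a single course per strain, the strain and the culture it was grown in cannot be told apart.

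Actin polymerises into the patches and cables that drive endocytosis and polarised growth in yeast, and dimers of alpha- and beta-tubulin form the microtubules of the spindle. Few yeast genes carry introns, and ACT1 has long served as a model transcript in studies of splicing. Whether a probe read exon, intron or both is not given in the sources used here, so spliced and unspliced RNA cannot be told apart.

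Every value below is a log2 ratio of RNA over genomic DNA minus the median of its array. A value of 0 is therefore the median probe and not a common level, and differences are read between arrays for 1 probe, never between probes. The arrays held a value for 77.3% to 98.4% of probes, with the lowest share on the prp22-1 array at 15 min, and had medians of -0.03 to 0.12 before centring. They were not scaled to a common spread. The SD over probes was widest on the prp17 null array at 120 min (1.055), against 0.519 in that strain at 0 min. In SS330 at 120 min it was 0.418. The part of this spread in the large differences on that array was not tested. CDC40 lay between -2.76 and -0.63 on the 6 prp17 null arrays and between -0.54 and 0.41 on those of SS330. It lay between -0.15 and 0.68 in prp17-1 and between -0.50 and 0.07 on the 5 prp22-1 arrays with a value. The low CDC40 value also served to read the direction of the ratio, so it is no independent check of the label.

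**Figure D1:**
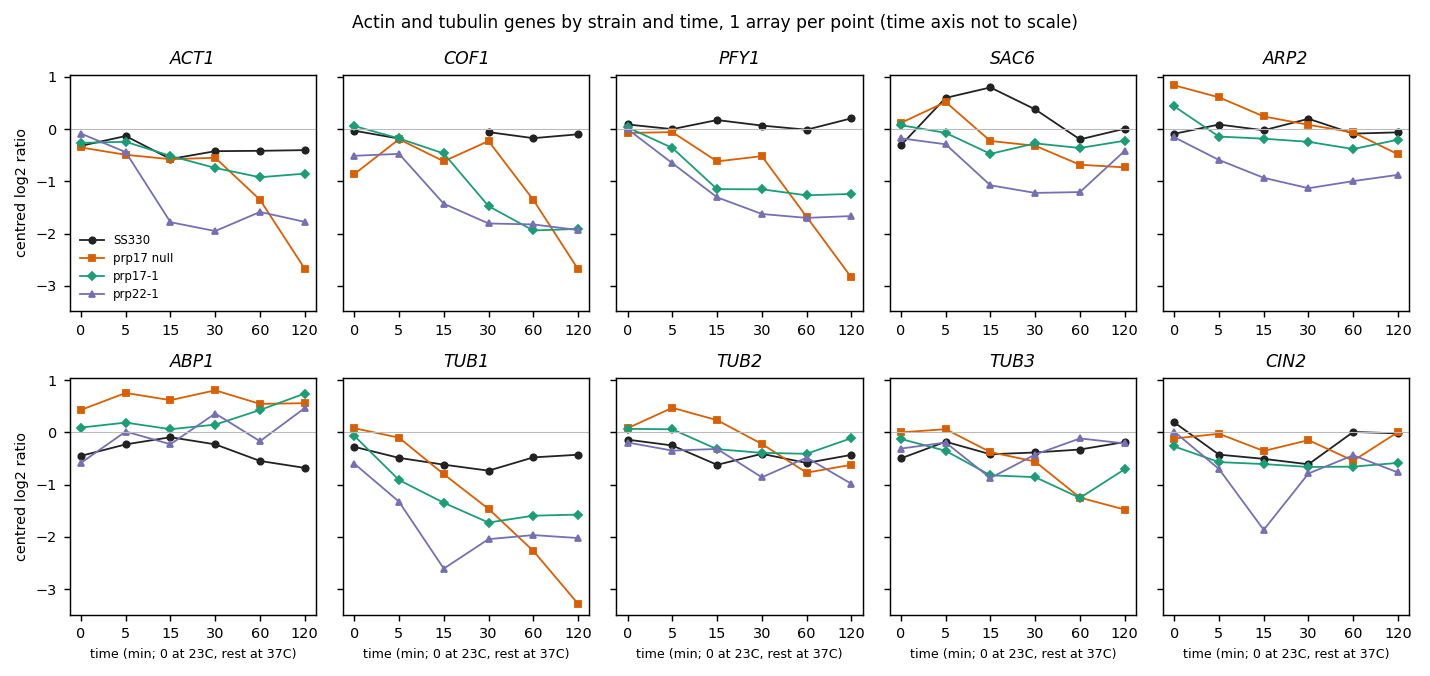
Centred log2 ratio (vertical axis) of the 10 genes at 0 min (23C) and at 5 to 120 min at 37C (horizontal axis, not to scale), with 1 array per point and no error bars since each point is a single array. SS330 (black) stays between -0.73 and 0.80, while ACT1, COF1, PFY1 and TUB1 reach -2.67, -2.68, -2.84 and -3.28 in prp17 null at 120 min.

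ACT1, the only conventional actin gene of this yeast, was lower in prp22-1 from 15 min and in prp17 null only at 60 and 120 min. Its log2 ratio in SS330 was -0.32 at 0 min and -0.13, -0.57, -0.42, -0.41 and -0.40 at 5, 15, 30, 60 and 120 min. The corresponding values in prp17 null, in the same order, were -0.35, -0.49, -0.57, -0.55, -1.35 and -2.67. The first 4 of these differed from SS330 by -0.36 to 0.00, and the last was the lowest of the 24 arrays. ACT1 in prp17-1 was at -0.26, -0.24, -0.51, -0.74, -0.92 and -0.85. In prp22-1 it was at -0.08, -0.44, -1.78, -1.95, -1.58 and -1.77. The largest step of the prp22-1 course was that from 5 to 15 min (-1.34), whereas that of prp17 null came from 60 to 120 min (-1.32). Relative to its own time 0, the ACT1 level at 120 min was 5.00-fold lower in prp17 null, 3.23-fold lower in prp22-1, 1.50-fold lower in prp17-1 and 1.06-fold lower in SS330.

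Over the 5 times at 37C the ACT1 difference from SS330 averaged -1.12 ± 0.48 (SD, n = 5 times) in prp22-1 and -0.27 ± 0.24 (SD, n = 5) in prp17-1. It averaged -0.74 ± 0.93 (SD, n = 5) in prp17 null, and -0.36 without the time point of 120 min. The values at 37C overlapped those of SS330 in each of the mutants. In prp22-1 only the 5 min array lay within the SS330 range, and the later 4 lay below it.

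COF1 encodes cofilin, which severs actin filaments, and its low values began at different times in the mutants. The SS330 arrays gave -0.03, -0.18, -0.06, -0.17 and -0.10 at 0, 5, 30, 60 and 120 min, with no value at 15 min. In prp17 null the 6 values were -0.86, -0.19, -0.61, -0.23, -1.35 and -2.68, so this gene was already low at time 0, with a difference from SS330 of -0.83. The prp17-1 values were 0.06, -0.18, -0.46, -1.47, -1.94 and -1.91. COF1 in prp17-1 was thus level with SS330 at 5 min and lowest at 60 min, where the difference was -1.77. In prp22-1 the values were -0.51, -0.47, -1.43, -1.80, -1.82 and -1.93. All prp17 null and prp22-1 values at 37C lay below the 4 SS330 values at 37C, while prp17-1 overlapped them at 5 min. Both prp17 strains were level with SS330 at 5 min, with differences of -0.012 in prp17 null and 0.003 in prp17-1. The mean difference from SS330 over the 4 times with both values was -1.38 ± 0.73 (SD, n = 4) in prp22-1 and -1.25 ± 0.85 (SD, n = 4) in prp17-1. In prp17 null it was -0.99 ± 1.18 (SD, n = 4), and -0.45 without 120 min.

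PFY1 encodes profilin, which binds actin monomers, and in SS330 it stayed close to the median of the array. Its values there were 0.09, 0.00, 0.18, 0.07, -0.01 and 0.21. The prp17 null values were -0.07, -0.06, -0.62, -0.52, -1.68 and -2.84. In prp17-1 they were 0.04, -0.36, -1.15, -1.15, -1.26 and -1.24, a plateau reached by 15 min. The prp22-1 values were 0.00, -0.65, -1.30, -1.62, -1.70 and -1.66. At time 0 the differences from SS330 were -0.16 to -0.06, and at 37C every mutant value lay below every SS330 value. PFY1 was the only one of the 10 genes for which this held in all 3 mutants. The mean difference from SS330 was -1.48 ± 0.48 (SD, n = 5) in prp22-1, -1.12 ± 0.43 (SD, n = 5) in prp17-1 and -1.23 ± 1.17 (SD, n = 5) in prp17 null, or -0.78 in prp17 null without 120 min. Of the 5487 tested probes, 11 had a fitted difference below that of PFY1 in prp22-1.

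SAC6 encodes fimbrin, which bundles actin filaments, and here the SS330 course itself moved. Its log2 ratio in SS330 was -0.31, 0.60, 0.80, 0.38, -0.19 and 0.01, with the highest value at 15 min. In prp17 null it was 0.12, 0.52, -0.22, -0.32, -0.68 and -0.73, so only the 5 min value was near that of SS330. The prp17-1 values, 0.08, -0.07, -0.47, -0.27, -0.36 and -0.22, showed no such peak. In prp22-1 they were -0.17, -0.29, -1.07, -1.22, -1.20 and -0.41. The change from time 0 at 15 min was 1.11 in SS330 and -0.90 in prp22-1. Averaged over 37C the difference from SS330 was -1.16 ± 0.58 (SD, n = 5) in prp22-1, -0.60 ± 0.44 (SD, n = 5) in prp17-1 and -0.61 ± 0.35 (SD, n = 5) in prp17 null. By 120 min the prp22-1 difference was -0.42, its smallest at 37C.

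ARP2 encodes a subunit of the Arp2/3 complex, which nucleates branched actin, and it started from unequal levels. At time 0 the difference from SS330 was -0.07 in prp22-1, 0.53 in prp17-1 and 0.93 in prp17 null. In SS330 the 6 values were -0.09, 0.09, -0.02, 0.20, -0.08 and -0.06. Those of prp17 null were 0.84, 0.61, 0.25, 0.08, -0.06 and -0.48, above SS330 up to 15 min, near it at 30 and 60 min and below it at 120 min. In prp17-1 they were 0.44, -0.14, -0.18, -0.24, -0.38 and -0.20 and in prp22-1 -0.15, -0.59, -0.93, -1.13, -0.99 and -0.87. The change from time 0 was therefore negative at all 5 times in each mutant, with a mean of -0.75 ± 0.20 (SD, n = 5) in prp22-1, -0.67 ± 0.09 in prp17-1 and -0.76 ± 0.40 in prp17 null, against 0.11 ± 0.12 in SS330. The difference from SS330 at 37C, which does not take the start into account, was -0.93 ± 0.24 (SD, n = 5) in prp22-1, -0.25 ± 0.12 in prp17-1 and 0.06 ± 0.36 in prp17 null. Leaving out single times moved the prp17 null value from -0.06 (without 5 min) to 0.17 (without 120 min), so its sign depended on the times kept.

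ABP1, an actin-binding activator of the Arp2/3 complex with no intron, went the other way. SS330 gave -0.45, -0.23, -0.09, -0.23, -0.55 and -0.68. The values in prp17 null were 0.43, 0.76, 0.62, 0.81, 0.55 and 0.56, above SS330 at every time, with a difference of 0.88 before the shift. In prp17-1 they were 0.09, 0.19, 0.06, 0.15, 0.43 and 0.74, also above SS330 throughout. The prp22-1 values of -0.58, 0.02, -0.23, 0.36, -0.17 and 0.47 overlapped those of SS330. The mean difference at 37C was 0.45 ± 0.47 (SD, n = 5) in prp22-1, or 0.27 without 120 min. It was 0.67 ± 0.52 (SD, n = 5) in prp17-1 and 1.01 ± 0.20 (SD, n = 5) in prp17 null. The change from own time 0 ordered the strains differently, with 0.67 ± 0.31 in prp22-1, 0.23 ± 0.12 in prp17 null, 0.22 ± 0.28 in prp17-1 and 0.09 ± 0.25 in SS330 (SD, n = 5 each).

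**Figure D2:**
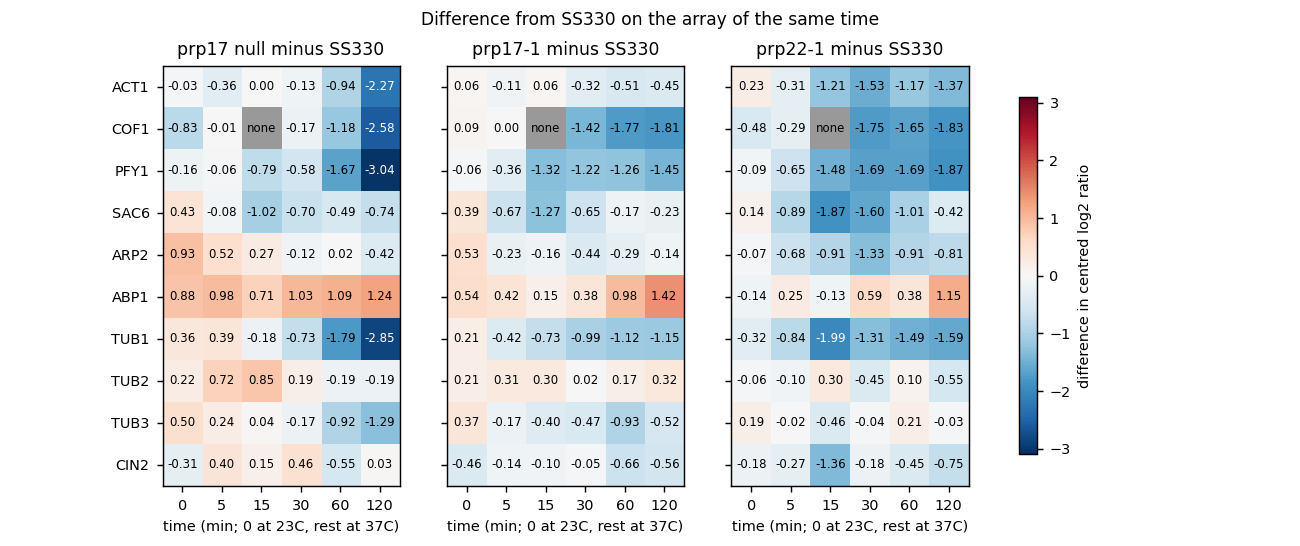
Difference in centred log2 ratio between each mutant and SS330 on arrays of the same time, for 10 genes (rows) and 6 times (columns), with blue for lower and red for higher in the mutant and grey where SS330 had no COF1 value. PFY1 and TUB1 in prp17 null reach -3.04 and -2.85 at 120 min, and ABP1 is the row that is red at all 6 times in prp17 null and prp17-1.

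Alpha-tubulin is encoded by the pair TUB1 and TUB3, of which TUB1 is the main gene, and in prp17 null TUB1 had the largest change from time 0 of the 10 genes. In SS330 TUB1 was at -0.28, -0.49, -0.62, -0.73, -0.48 and -0.43. Its prp17 null values were 0.08, -0.10, -0.80, -1.46, -2.27 and -3.28, lower at each successive time. The value at 120 min was 10.3-fold lower than at time 0. In prp17-1 the values were -0.06, -0.91, -1.35, -1.72, -1.59 and -1.57 and in prp22-1 -0.60, -1.33, -2.61, -2.04, -1.96 and -2.02. Both of these courses had ended their descent by 30 min, and every value at 37C lay below all of SS330. The mean difference from SS330 was -1.44 ± 0.42 (SD, n = 5) in prp22-1 and -0.88 ± 0.30 (SD, n = 5) in prp17-1. In prp17 null it was -1.03 ± 1.30 (SD, n = 5), with a positive value of 0.39 at 5 min and with -0.58 as the mean without 120 min.

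TUB3, the minor alpha-tubulin gene, stayed near SS330 in prp22-1, where TUB1 was low. SS330 gave -0.50, -0.18, -0.42, -0.38, -0.33 and -0.18. In prp17 null TUB3 was at 0.00, 0.06, -0.38, -0.56, -1.25 and -1.48 and in prp17-1 at -0.12, -0.35, -0.82, -0.86, -1.25 and -0.70. The prp22-1 values of -0.31, -0.19, -0.87, -0.42, -0.12 and -0.21 overlapped those of SS330, and the mean difference there was -0.06 ± 0.24 (SD, n = 5). It changed sign with the times kept, from -0.13 without 60 min to 0.03 without 15 min. In prp17-1 the mean difference was -0.50 ± 0.27 (SD, n = 5). In prp17 null it was -0.42 ± 0.66 (SD, n = 5), and -0.20 without 120 min. The change of TUB1 from time 0 minus that of TUB3 lay between -1.56 and -0.84 in prp22-1 and between -0.57 and -0.37 in SS330. TUB1 and TUB3 are close paralogs, and how far each probe also reads the other was not tested, so their values are uncertain as measures of single genes.

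TUB2, the only beta-tubulin gene and one without an intron, stayed nearer to SS330. The SS330 values were -0.14, -0.25, -0.62, -0.41, -0.58 and -0.43. Those of prp17 null were 0.08, 0.47, 0.24, -0.22, -0.77 and -0.62, above SS330 until 30 min and below it after. In prp17-1 they were 0.07, 0.06, -0.32, -0.39, -0.41 and -0.11, above SS330 at every time. In prp22-1 they were -0.19, -0.35, -0.32, -0.86, -0.48 and -0.98. All mutants overlapped SS330, with mean differences of 0.28 ± 0.49, 0.23 ± 0.13 and -0.14 ± 0.36 (SD, n = 5) in prp17 null, prp17-1 and prp22-1. Leaving out 1 time moved the prp17 null value between 0.13 (without 15 min) and 0.40 (without 120 min), and that of prp22-1 between -0.25 (without 15 min) and -0.04 (without 120 min). At 120 min the change of TUB1 from time 0 minus that of TUB2 was -0.64 in prp22-1, -1.33 in prp17-1 and -2.66 in prp17 null. The order of the strains was another at 15 min, with -1.89 in prp22-1, -0.89 in prp17-1 and -1.04 in prp17 null. In SS330 this difference stayed between -0.18 and 0.24, while the change of TUB3 minus that of TUB2 lay between 0.39 and 0.62.

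**Figure D3:**
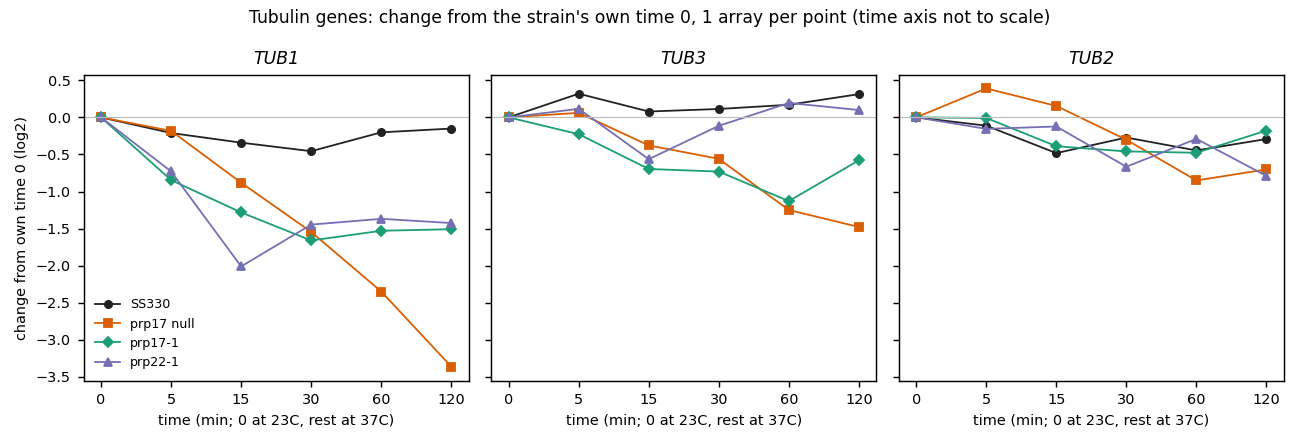
Change from the strain's own time 0 (log2, vertical axis) of the tubulin genes TUB1, TUB3 and TUB2 by time at 37C (horizontal axis, not to scale), 1 array per point. TUB1 in prp17 null reaches -3.36 at 120 min, where TUB3 stands at -1.48 and TUB2 at -0.70, while in prp22-1 TUB1 is at -1.42 and TUB3 at 0.10.

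CIN2 encodes a factor that acts with CIN1 and CIN4 in tubulin folding, and it showed no common pattern. SS330 read 0.19, -0.42, -0.51, -0.61, 0.01 and -0.02, and so was low at 5 to 30 min. The prp17 null values were -0.12, -0.03, -0.36, -0.15, -0.54 and 0.01 and those of prp17-1 -0.27, -0.57, -0.61, -0.66, -0.66 and -0.58. In prp22-1 CIN2 was at 0.01, -0.70, -1.86, -0.79, -0.44 and -0.77, with 1 low array at 15 min, that with the fewest measured probes. All mutants overlapped SS330, with a mean difference of -0.60 ± 0.48 in prp22-1, -0.31 ± 0.29 in prp17-1 and 0.10 ± 0.40 in prp17 null (SD, n = 5). The last ran from 0.01 without 30 min to 0.26 without 60 min.

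Over the 8 genes with an intron the median difference from SS330 was lowest at 30 min in prp22-1, at 120 min in prp17 null and at 60 min in prp17-1. Single genes departed from it, with mean differences at 37C of -0.06 for TUB3 in prp22-1 and of 0.06 for ARP2 and 0.10 for CIN2 in prp17 null. The median of the differences from SS330 in prp22-1 was -0.08 at 0 min and -0.48, -1.36, -1.43, -1.09 and -1.09 at the 5 later times. In prp17 null the series ran 0.16, 0.11, 0.00, -0.17, -0.93 and -1.78, and in prp17-1 0.15, -0.20, -0.40, -0.56, -0.80 and -0.54. The median over all tested probes stayed between -0.09 and 0.01 in all strains and times. At 120 min 7 of the 8 genes were below SS330 in prp17 null and 8 of 8 in prp17-1 and in prp22-1, against 2586 of 5133, 2700 of 5220 and 2723 of 5344 probes. These genes were chosen with the values known, so nothing is read from the counts. In SS330 itself the median change of the 8 genes from time 0 stayed between -0.10 and 0.07.

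A wider list holds the 96 genes, outside these 10 and outside ribosomal protein genes, whose length from start to stop codon is not a multiple of 3, here called an interrupted frame. It stands for genes with an intron that shifts the frame, though it takes in some with a programmed frameshift, and it misses introns that keep the frame. Its median difference from SS330, over up to 81 tested probes, was lowest at 60 min in prp17 null (-0.62) and in prp17-1 (-0.36) and at 15 min in prp22-1 (-0.50). At 120 min these medians were -0.35, -0.31 and -0.39. Other cytoskeleton genes without an interrupted frame (86 probes) had median differences in prp22-1 of 0.00 to 0.09. Their medians ran from -0.075 to 0.209 in prp17 null and from -0.065 to 0.106 in prp17-1. Among the 10 genes, COF1, PFY1, TUB1, TUB3 and CIN2 have an interrupted frame, and ACT1, SAC6 and ARP2 have introns that keep it. The values above show low and near-SS330 courses on both sides of that divide.

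**Figure D4:**
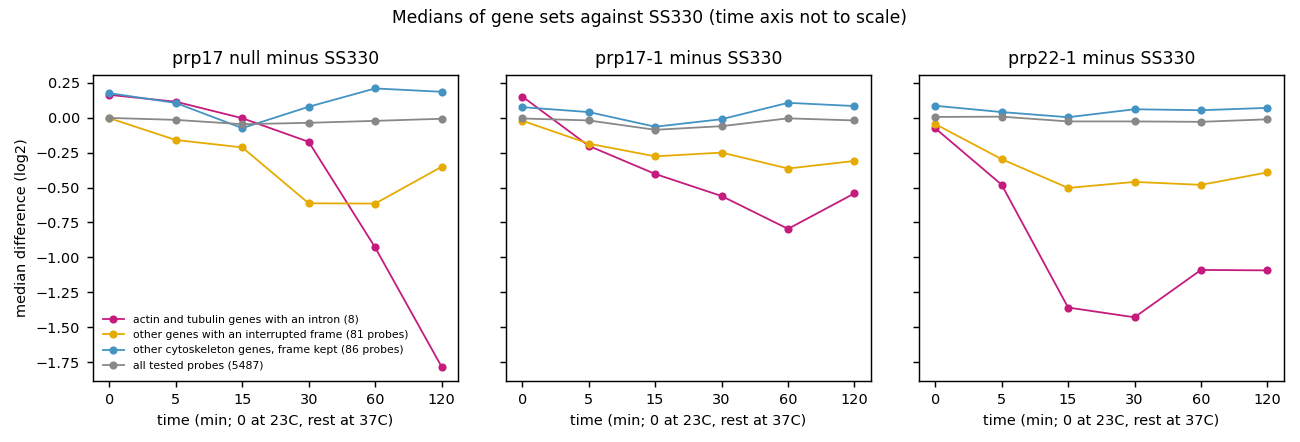
Median difference from SS330 (log2, vertical axis) by time (horizontal axis, not to scale) for the 8 actin and tubulin genes with an intron, other genes with an interrupted frame, other cytoskeleton genes with the frame kept, and all tested probes. At 120 min the 8 genes stand at -1.09 in prp22-1, -0.54 in prp17-1 and -1.78 in prp17 null, and the other interrupted-frame genes at -0.39, -0.31 and -0.35.

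In a fit over all probes (limma, adjusted p under 0.05), 6 of the 10 genes were called lower than SS330 in prp22-1, namely ACT1, COF1, PFY1, SAC6, ARP2 and TUB1, where 1.68% of tested probes were called lower, and 0 were called higher (1.80% of probes). In prp17 null 5 were called lower, ACT1, COF1, PFY1, SAC6 and TUB1 (19.4% of probes), and 1, ABP1, higher (14.6%). In prp17-1 0 were called lower (2.22%) and 1, ABP1, higher (0.948%). The fit pools the spread of each gene over all strains, so a call in 1 mutant does not rest on the spread of that mutant alone. For the temperature shift over the 4 strains, 5 were called lower, ACT1, PFY1, ARP2, TUB1 and CIN2 (16.9%), and 0 higher (13.8%). The choice of genes used these contrasts, so the counts are a description. Values at 37C that all lay below SS330 were found for 5 genes in prp22-1 (3.30% of probes), 3 in prp17-1 (4.72%) and 2 in prp17 null (9.79%). Values all above SS330 were found for ABP1 in prp17 null (7.64%) and prp17-1 (2.44%) and for 0 genes in prp22-1 (3.13%).

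Between mutants, the fit called 4 of the 10 genes lower in prp22-1 than in prp17 null (11.9% of probes), SAC6, ARP2, ABP1 and CIN2, and 0 higher (15.0%). ARP2 alone was called lower in prp22-1 than in prp17-1 (2.10%), with 0 higher (5.25%). The fitted difference for ARP2 was -0.98 against prp17 null and -0.67 against prp17-1. None of the 10 was called between prp17-1 and prp17 null (6.11% of probes higher and 6.82% lower), where the fitted differences lay between -0.40 and 0.47. All of these comparisons at 37C share the SS330 or mutant arrays with others, so they are not independent of each other.

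The courses of the 10 genes resembled each other to very different degrees. Pearson's r over the arrays with both values ran from -0.47 for PFY1 with ABP1 to 0.94 for PFY1 with TUB1. ACT1 had r of 0.90 with PFY1, 0.88 with TUB1 and 0.86 with COF1, but 0.52 with TUB3 and 0.38 with CIN2. These are descriptions over 24 arrays (23 for COF1) that the genes share, and the points of a course are not independent. Over 4870 other named probes, the 5 most like ACT1 were those of PMI40, a mannose-6-phosphate isomerase gene (r = 0.91), EFB1, a translation elongation factor gene (0.90), YOP1, which shapes the endoplasmic reticulum (0.90), PFY1 and TUB1. The 5 most like TUB1 were PFY1, the lipid transfer gene SEC14 (0.91), the GTPase genes ARF1 and ARF2 of vesicle traffic (0.91 each) and the ribosomal protein gene RPS25B (0.90). ARF1 and ARF2 are close paralogs whose probes may read each other. Of these 9 genes YOP1, PFY1 and TUB1 have an interrupted frame. That measure misses introns that keep the frame, such as that of ACT1, so it does not tell how many of the 9 carry an intron.

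Beyond the 10 genes, 105 other genes of the actin, septin and microtubule cytoskeleton were listed in 8 groups, of which 102 had a probe and 90 passed the filter on missing values. These genes could be tested, by limma with p-values adjusted over the whole table, though they share their arrays with the 10. In comparisons of strains the p-values measure the spread between time points that the average course leaves, not that between cultures. For the temperature shift they measure the spread over arrays that the average course and a constant level per strain leave. The arrays of a strain form a single course and are not independent. In prp22-1 0 of the 90 were called higher than SS330 and 1, LSB3, was called lower (8 and 5 at an unadjusted p under 0.05), against 1.80% and 1.68% of all tested probes. LSB3, which acts in actin patches at sites of endocytosis, is 1 of 5 tested genes of the list with an interrupted frame. Its probes gave -1.13 ± 0.22 (SE, adjusted p = 0.00628) and -0.95 ± 0.17 (SE, adjusted p = 0.00448), lower at 5 of 5 times. The same probes stood at 0.00 and -0.01 in prp17 null (adjusted p = 0.997 and 0.986) and at 0.03 each in prp17-1 (adjusted p = 0.964 and 0.951). The direct difference between prp22-1 and prp17-1 was -1.16 (adjusted p = 0.00430) and -0.98 (adjusted p = 0.00286), and at time 0 it was -0.16 and -0.02.

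ARP3, the partner of ARP2 in the Arp2/3 complex, stood near SS330 in prp22-1, where ARP2 was low, and the gap between them was not tested. Its difference from SS330 was 0.09 in prp22-1 (limma adjusted p = 0.779), 0.23 in prp17-1 (adjusted p = 0.407) and 0.28 in prp17 null (adjusted p = 0.139), none of which passed. Of the 5 tested genes of that complex other than ARP2, 1, ARC40, was higher in prp17 null, where 14.6% of all tested probes were called higher. None of the 5 was called in prp17-1 (0.948% of probes higher and 2.22% lower) or prp22-1 (1.80% and 1.68%). CIN1, a tubulin cofactor and partner of CIN2, was lower in prp17 null (-0.59 ± 0.10 SE, limma adjusted p = 0.000751, lower at 5 of 5 times). It did not pass in prp17-1 (-0.33, adjusted p = 0.0901) and stood at 0.00 in prp22-1. These differences at 37C do not take the start into account. At time 0 the CIN1 difference of prp22-1 from SS330 was 0.685, against 0.006 for prp17-1 and -0.241 for prp17 null. The gamma-tubulin gene TUB4 and the folding gene CIN4 had a probe and too few values for a test.

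In prp17 null 21 of the 90 other cytoskeleton genes were called higher and 14 lower (29 and 18 at an unadjusted p under 0.05), against 14.6% and 19.4% of all tested probes. Of 30 genes of actin filaments and patches 14 were higher and 2, AIM7 and TWF1, lower, and the other 14 were not called. No difference between groups of genes was tested. Among called genes with 1 sign at all 5 times, the largest positive differences were in BBC1, which acts at actin patches (1.03 ± 0.18 and 0.85 ± 0.19 by its probes, SE, limma adjusted p = 0.000608 and 0.00375), and SRV2, which recycles actin monomers (0.70, adjusted p = 0.00240). TPM1, a tropomyosin gene, was higher by 0.64 (adjusted p = 0.000873), as was NUM1, a cortical anchor of dynein, by 0.66 (adjusted p = 0.0294). All 19 of the probes called higher that had a value at 23C were above SS330 there too, with a median difference of 0.53 at time 0 and 0.52 at 37C over the called probes. SRV2 and TPM1 were higher at time 0 by 0.69 and 0.81. Of 7 myosin and contractile ring genes 3 were higher (MLC1, MYO2 and MYO3), as were 2 of 5 septin genes (SHS1 and CDC3). The list as a whole had a median of -0.01 and all tested probes one of -0.04.

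Of 9 tested genes for the folding of tubulin, 6 were lower and 0 higher in prp17 null, against 19.4% and 14.6% of all tested probes. The 6 were GIM4, GIM5 and PAC10 of the prefoldin complex, which hands unfolded actin and tubulin to the chaperonin, and the tubulin cofactor genes ALF1, RBL2 and CIN1. GIM4 differed by -0.96 ± 0.18 (SE, limma adjusted p = 0.00124) and ALF1 by -0.57 ± 0.14 (SE, adjusted p = 0.00515), both lower at 5 of 5 times. GIM4 and GIM5 have an interrupted frame, and so has the dynein light chain gene DYN2, at -0.77 (adjusted p = 0.0201). The probes called lower had a median difference of -0.15 at time 0 and -0.60 at 37C, and 7 of the 13 with a value at time 0 were below SS330 there. AIM7, an Arp2/3 regulator, was lower by a like amount before the shift (-0.68) and at 37C (-0.75, adjusted p = 9.79e-05). Of the other microtubule genes 4 of 22 associated proteins and motors were lower (KIP1, DYN2, ARP1 and KAR9), 1 of 7 spindle pole genes (BBP1) and 1 of 5 DASH ring genes (SPC34). These counts are near the 19.4% of all tested probes, so they are not a result about those groups. The prp17 null counts were open to the choice of arrays. With only 5, 15 and 30 min they were 2 higher and 5 lower, and with only 60 and 120 min 29 higher and 11 lower. The higher count was 9 without the SS330 array at 60 or at 120 min and 10 without the prp17 null array at those times. It was 13 without the SS330 array at 30 min, 24 without the prp17 null array at 15 min and 25 without the prp22-1 array at 15 min.

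**Figure D5:**
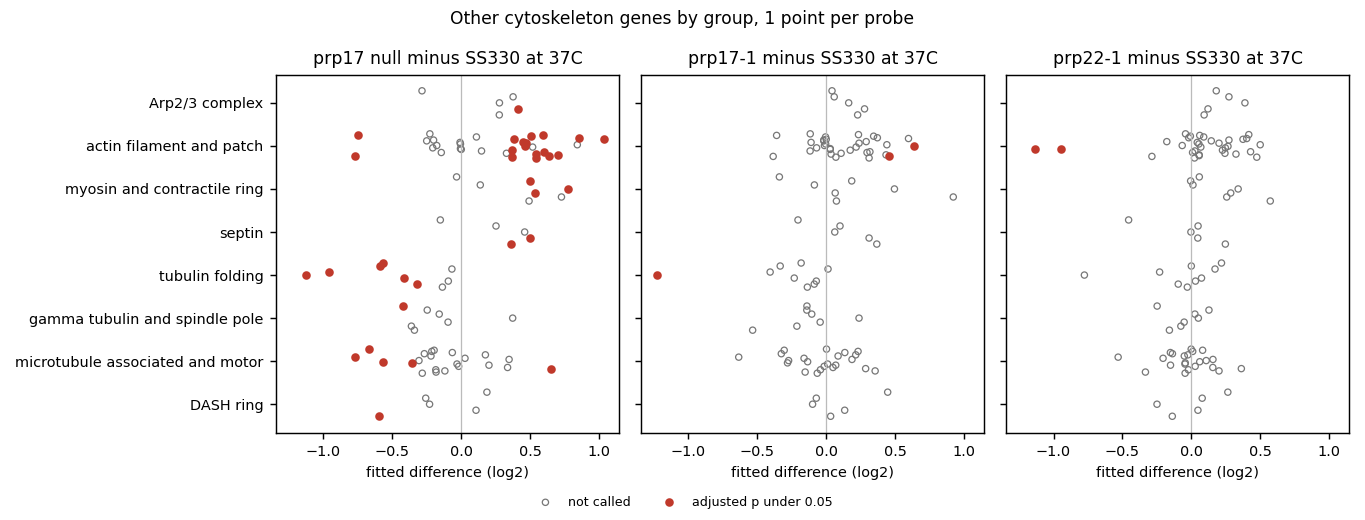
Fitted difference from SS330 at 37C (log2, horizontal axis) for the probes of other cytoskeleton genes in 8 groups (rows), 1 point per probe, filled where the adjusted p was under 0.05. In prp17 null the filled points are 14 genes higher and 2 lower for actin filaments and patches and 6 lower for tubulin folding, and in prp22-1 only the LSB3 probes are filled. Of all tested probes 14.6% were called higher and 19.4% lower in prp17 null.

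In prp17-1 2 of the 90 genes were higher and 1 lower (11 and 9 at an unadjusted p under 0.05), against 0.948% and 2.22% of all tested probes. ENT1, an endocytic adaptor gene, was at 0.64 ± 0.15 (SE, limma adjusted p = 0.0335) and TPM1 at 0.46 ± 0.12 (SE, adjusted p = 0.0406, with 0.65 at time 0), both higher at 5 of 5 times. GIM5 was lower, at -1.23 (adjusted p = 0.0210, lower at 4 of 4 times). Leaving out single arrays moved the count of higher genes between 0 and 2 and that of lower genes between 0 and 3. It was 0 higher without the SS330 array at 5, 30 or 120 min or the prp17-1 array at 15, 30, 60 or 120 min, and 0 lower without the SS330 array at 30, 60 or 120 min or the prp17-1 array at 15, 30 or 120 min.

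Mutants were also set against each other. Between prp22-1 and prp17 null 11 of the 90 genes were higher in prp22-1 and 10 lower (limma), near the 15.0% and 11.9% of all tested probes. The folding genes ALF1 (0.79, adjusted p = 0.000734), GIM4 (0.73, adjusted p = 0.00830) and CIN1 (0.59, adjusted p = 0.000879) were on the higher side, with differences of 0.12, 0.28 and 0.93 at time 0. LSB3 (-1.13, adjusted p = 0.00147), SRV2 (-0.65, adjusted p = 0.00494) and BBC1 (-0.63, adjusted p = 0.0156) were on the lower side, each at 5 of 5 times. At time 0 the differences of LSB3, SRV2 and this BBC1 probe were -0.04, -0.53 and -0.56. Between prp17-1 and prp17 null 5 were higher and 1, SLA2, lower, against 6.11% and 6.82% of all tested probes, with ARP1, an actin-related dynactin gene, at 0.67 (adjusted p = 0.00676) the largest among those with 1 sign throughout. That total of 6 was 12 without the prp17 null array at 15 min and 3 without the prp17-1 array at 120 min. Between prp22-1 and prp17-1 AIM7 was higher (0.42, adjusted p = 0.0150, with -0.21 at time 0), and LSB3 and TPM1 (-0.40, adjusted p = 0.0437, with -0.57 at time 0) were lower, against 5.25% and 2.10% of all tested probes.

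The shift to 37C, averaged over the 4 strains, left 12 of the 90 genes called higher and 16 lower (limma, strain as a block). These counts are near the background, since 13.8% of all tested probes were called higher and 16.9% lower, so they are not a result about cytoskeleton genes. Scaling moved this balance, to 13 higher against 11 lower on the values without centring and to 5 against 17 after quantile normalization. EDE1, an early endocytic scaffold gene (0.83, adjusted p = 0.0231), BBC1 (0.72 and 0.67, adjusted p = 0.00282 and 0.00307), MYO3, a type I myosin gene (0.58, adjusted p = 0.00586), and CAP2, a subunit of capping protein (0.53, adjusted p = 0.00258), had the largest rises shared by all 4 strains. ARP3 and 2 other genes of the Arp2/3 complex, ARC18 and ARC19, were also higher, with ARP3 at 0.31 (adjusted p = 0.0490). On the lower side stood GIM5 (-1.04, adjusted p = 0.00223), the gamma-tubulin complex genes SPC97 (-0.72, adjusted p = 0.000474) and SPC98 (-0.68, adjusted p = 0.000905), GIM4 (-0.64, adjusted p = 0.00358) and the actin-binding gene ABP140 (-0.56, adjusted p = 0.00148).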

How the data were processed

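The values used are the log2 ratios deposited by the authors for 24 arrays; per the labels, Cy5 held total RNA and Cy3 yeast genomic DNA. The sources used here do not state the base (taken as 2), the background correction or the spot filter. The direction was read from low CDC40 in prp17 null and high heat shock genes at 37C. Each array was centred on its median. Gene names came from the platform annotation and 823 of 6350 probes had none. A probe was tested with a value on at least 20 arrays and at least 3 of 5 at 37C per strain (5487 probes). All 24 arrays entered each limma fit (version 3.58.1, R 4.3.3), with strain by temperature groups and time as a block, or, for the shift, strain as a block. Benjamini-Hochberg adjustment was over all tested probes. Between strains, each p therefore measures the spread among times that the average course leaves, pooled over single courses, not that among independent cultures. For the shift each p measures the spread over arrays that the average course and a constant level per strain leave. The arrays of a strain form a single course, so they are not independent. The fits were tested on simulated data. Tables and figures used Python 3.11.15, numpy 2.4.6, pandas 2.3.3 and matplotlib 3.10.9.

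Reading frames came from the RefSeq gene table (gene lengths under 5000). The members and lists were chosen with earlier results of these data known. All 10 members were named. Other genes were named, up to 5 rises and 5 falls per comparison, if they passed the threshold of 0.05 and kept their sign at each of the 5 times (for the shift, in each of 4 strains), besides ARP3, TUB4, CIN1 and CIN4. Further names list the genes of a count and were chosen after their values were seen. No sequence was used here. Alternatives tried were values without centring, quantile normalization, centring without ribosomal protein genes, other filters, early or late times, no block, only the strains compared, trend and robust settings, an adjusted p under 0.01 and leaving out each array at 37C.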

Additional observations from a re-analysis of the deposited data

Results flagged for a closer look

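Of 39 groups of 5 arrays at 37C tested for a value far from the others, 3 had one. The cut-off is meant for values in no order, where chance gives 1 in 20. These values are successive times of a course, so that rate need not hold here. ACT1 in prp22-1 stood at -0.44 at 5 min, above the other 4 times. PFY1 in prp17-1 stood at -0.36 at 5 min, also above its other times. CIN2 in prp22-1 stood at -1.86 at 15 min, below its other times, on the array with the lowest share of measured probes (77.3%); the part of that share in the value was not tested.

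For some of the 10 genes the change from time 0 had one sign at all 5 times in SS330 and the opposite sign at all 5 times in a mutant. The mean change minus that of SS330 was -0.98 in prp17-1 and -1.29 in prp22-1 for SAC6. For ARP2 the prp17 null value was -0.87, that of prp17-1 -0.78 and that of prp22-1 -0.86, and for TUB3 in prp17-1 it was -0.87. The sign for ARP2 in SS330 rests in part on small changes, 0.004 at 60 min and 0.028 at 120 min. All changes of a strain share its array at time 0. The differences between strains were not tested, since the genes were chosen from the same values.

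Other cytoskeleton genes differed between mutants by the limma contrast itself. Between prp17-1 and prp17 null they were ARP1 (0.67), BIK1 (0.44, adjusted p = 0.00747), SCP1 (0.44, adjusted p = 0.0187) and AIM7 (0.39, adjusted p = 0.0168). Between prp22-1 and prp17 null the higher ones were AIM7 (0.81, adjusted p = 4.44e-05), ALF1 (0.79), GIM4 (0.73), KAR9 (0.63, adjusted p = 0.00752) and CIN1 (0.59). The lower ones were LSB3 (-1.13), SRV2 (-0.65), BBC1 (-0.63), BZZ1 (-0.62, adjusted p = 0.00926) and TPM1 (-0.58, adjusted p = 0.00199). Between prp22-1 and prp17-1 they were AIM7 (0.42), LSB3 (-1.16 and -0.98 by its probes) and TPM1 (-0.40).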

How the results depend on the processing

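The median over the 10 genes of the mean difference from SS330 stood at -0.51 for prp17 null, -0.40 for prp17-1 and -1.02 for prp22-1, with ranges of -0.66 to -0.28, -0.46 to -0.32 and -1.11 to -0.92 when each time was left out. With each time left out, no called value of a single gene changed sign. Leaving out 1 time, or keeping only the early times, cannot move a mean difference by 1 SD over times. In those settings a move below 1 SD is therefore no sign of stability. Of 450 recomputed differences of single genes over all settings, 445 moved by less than 1 SD over times. The 5 others were TUB3 in prp17 null (-1.11), ABP1 (1.20) and CIN2 (-0.61) in prp17-1 with only 60 and 120 min, and TUB1 (-0.49) and TUB2 (0.40) in prp17-1 under quantile normalization.

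Counts of other cytoskeleton genes moved more, and the cause was not tested. In some settings fewer arrays or probes entered. Quantile normalization gave 9 lower for prp17 null, 7 higher and 4 lower for prp17-1, 2 and 2 in prp22-1, 5 higher for the shift, 2 for prp17-1 against prp17 null and 9 for prp22-1 against prp17 null. With only 5, 15 and 30 min the counts were 2 and 5 for prp17 null, 0 and 0 for prp17-1, and 0, 11 and 1 for prp17-1 and prp22-1 against prp17 null and prp22-1 against prp17-1. With only 60 and 120 min they were 4 and 2 in prp17-1, 1 and 2 in prp22-1, 13 for prp22-1 against prp17 null, 1 for prp22-1 against prp17-1 and 6 lower for the shift. Requiring a value on all 24 arrays left 13 and 9 in prp17 null, 1 higher in prp17-1 and 3 for prp17-1 against prp17 null. Without the replicate block, which is the block on time (for the shift, on strain), there were 0 higher in prp17-1, 1 higher in prp22-1, 1 for prp22-1 against prp17-1, and 7 higher and 8 lower for the shift. At an adjusted p under 0.01 there were 6 and 8 for prp17 null, 0 and 0 for prp17-1, 2, 12 and 1 between mutants, and 6 and 6 for the shift. Trend and robust settings gave 1 and 2 in prp17-1 and 1 higher in prp22-1. With only the arrays of the strains compared there were 6 and 6 for prp17 null, 3 lower in prp17-1, and 3, 6 and 1 between mutants.

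Leaving out each array at 37C gave 9 to 25 higher and 10 to 15 lower for prp17 null, 0 to 2 and 0 to 3 for prp17-1, and 0 to 1 and 1 to 2 for prp22-1. It gave 3 to 12 for prp17-1 against prp17 null, 15 to 21 for prp22-1 against prp17 null, 2 to 4 for prp22-1 against prp17-1, and 11 to 14 and 12 to 18 for the shift. With prp22-1 against SS330, 1 gene was higher without SS330 or prp17 null at 15 min or prp17 null at 60 min, and 2 were lower without SS330 at 5 min. Signal over background is not given, so 24 arrays set the precision.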
